A study of Mus musculus with 22 samples.

Results

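Basement membrane components were followed in fibroblasts sorted from mouse back skin on 3 days after an expander was placed under the skin. The set holds 10 of the 55414 genes in the count table: Col4a1, Col4a2, Col15a1, Col18a1, Lama2, Lama4, Lamb1, Lamc1, Nid1 and Hspg2. They were chosen by symbol, as the genes of collagens IV, XV and XVIII, of 4 laminin chains, of nidogen and of perlecan, and all 10 were found and had enough counts to be tested. Every mouse was operated on. In the group named EXP an expander hydrogel, a material that swells after it is inserted, was placed under the skin, and in the group named CTRL the operation was done with no expander. RNA came from 4 CTRL and 5 EXP libraries on day 1, 3 CTRL and 3 EXP libraries on day 2, and 4 CTRL and 3 EXP libraries on day 4. Cells bearing CD31, CD45, CD117 or EpCAM were sorted away, and live cells bearing CD34 and PDGFRα were kept, so that endothelial, immune, mast and epithelial cells were meant to be absent. The labels give no genotype, strain, sex or age of the mice, and they do not say whether each library is a single animal; the p-values therefore measure the spread between these libraries.

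A basement membrane is a thin sheet of matrix beneath epithelia and around vessels, nerves, muscle fibres and adipocytes. Laminins, each a trimer of an alpha, a beta and a gamma chain, and collagen IV, a trimer usually built from the products of Col4a1 and Col4a2, form separate networks in it. Nidogen and the proteoglycan perlecan tie these networks together, and collagens XV and XVIII anchor the sheet to the fibrillar matrix on its far side. In skin, dermal fibroblasts contribute several of these proteins, among them the collagen IV chains and nidogen.

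With the expander, the members did not move as a block. Col15a1 and Col18a1 were lower in EXP than in CTRL on all 3 days, by 3.19 to 5.14-fold and by 2.27 to 2.61-fold. Lamb1 and Hspg2 were lower on day 1, by 2.4-fold and 1.71-fold, and Lama2 was lower on days 1 and 4. Nid1, Lama4 and Col4a2 were higher on day 4, by 2.62-fold, 1.78-fold and 1.58-fold. Col4a1 and Lamc1 passed the test on no day. Calls are edgeR quasi-likelihood tests with Benjamini-Hochberg adjustment over all 17554 tested genes at an adjusted p under 0.05, and levels are CPM, a share of the reads of a library after TMM scaling of its total.

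Library totals ran from 21461294 to 30210204 counts, and the 10 members took 0.230% to 0.692% of the counts of a library. Of the markers used for sorting, Ptprc, Kit, Epcam and Pecam1 stayed at or below 0.243, 0.699, 2.09 and 3.68 CPM. The positive markers were present in every library but differed between the arms. Cd34 was at 1270 to 1550 CPM in CTRL and 262 to 778 in EXP on day 1, 1680 to 2090 and 217 to 665 on day 2, and 1380 to 2350 and 442 to 1550 on day 4. Pdgfra was at 320 to 413 CPM in CTRL and 465 to 702 in EXP on day 1, 227 to 258 and 464 to 1020 on day 2, and 275 to 335 and 295 to 865 on day 4. Of 6 immune markers 4 were tested, and 2, 2 and 1 were called higher and 1, 0 and 0 lower on days 1, 2 and 4. Of all tested genes, 13.9%, 7.72% and 12.8% were called higher and 14.7%, 5.71% and 9.66% lower. The sum of the 6 immune markers was 63.0 to 110 CPM in CTRL and 63.3 to 89.7 in EXP on day 1, 139 to 181 and 99.3 to 172 on day 2, and 123 to 158 and 76.0 to 180 on day 4. None of 10 fibroblast markers was at 0 in any library, but their summed level differed between the arms. It was 212000 to 286000 CPM in CTRL and 95600 to 173000 in EXP on day 1, 331000 to 411000 and 71000 to 173000 on day 2, and 269000 to 371000 and 85600 to 283000 on day 4. Fewer cells of a type and less RNA per cell cannot be told apart in these sorted bulk samples. The libraries were also put on 2 sides by the mean log2 CPM of 192 genes that rise and fall together. These genes correlated above 0.9 with Rnf10 after group means were removed. The cut was set at the largest gap, from 4.13 to 4.83, among means from 2.474 to 5.477. It put 7 libraries on the high side (3 CTRL and 2 EXP of day 1, 2 CTRL of day 4) and 15 on the low side. No library of day 2 and no EXP library of day 4 was on the high side, so the split is partly tied to day and arm. The labels record no batch, and values within each side are given below.

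**Figure D1:**
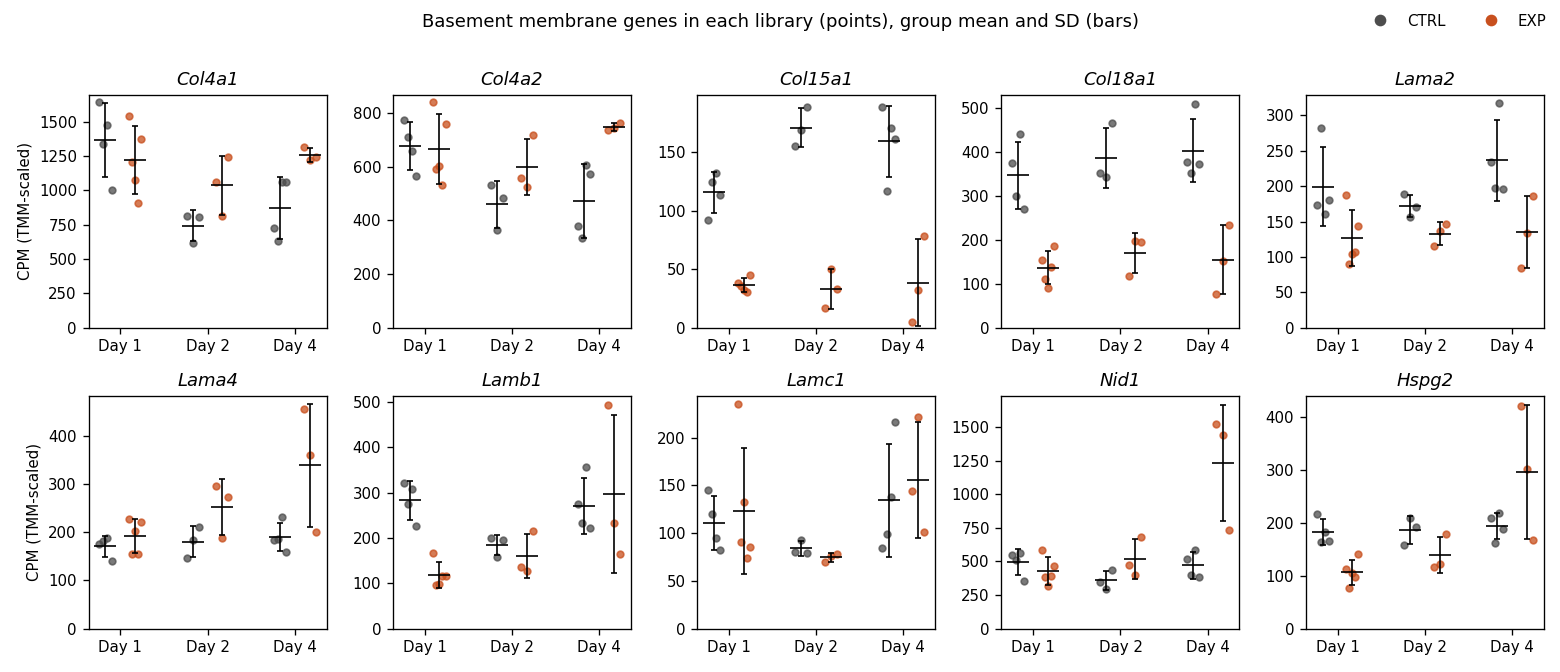
Level of each of the 10 members in each of the 22 libraries, as CPM on an axis from 0, by day and arm, with bars for the group mean and SD. The EXP libraries lie below the CTRL libraries for Col15a1 and Col18a1 on every day, and above them for Nid1, Col4a1 and Col4a2 on day 4.

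Col15a1 (ENSMUSG00000028339) and Col18a1 (ENSMUSG00000001435) encode the multiplexins, collagens with interrupted triple helices that carry glycosaminoglycan chains and end in the restin and endostatin fragments. On day 1, Col15a1 was at 92.6, 125, 133 and 114 CPM in the CTRL libraries and at 38.4, 35.4, 32.2, 30.2 and 45.4 CPM in the EXP libraries. On day 2 it was at 156, 169.5 and 188 CPM in CTRL and 16.7, 50.5 and 32.8 CPM in EXP. On day 4 it was at 189, 117, 171 and 162 CPM in CTRL and 5.02, 32.7 and 78.5 CPM in EXP. The EXP libraries were below every CTRL library of their day, and they spread most on day 4, from replicate 1 at the lowest level of all 22 libraries to replicate 3 nearest to CTRL. The log2 fold change was -1.67 with an SE of 0.44 (adjusted p 0.00798) on day 1, -2.36 with an SE of 0.56 (adjusted p 0.00937) on day 2 and -2.04 with an SE of 0.53 (adjusted p 0.0119) on day 4. The call was lost without EXP replicate 1 on day 2 (-2.04, adjusted p 0.0659) and without EXP replicate 2 on day 4 (-1.95, adjusted p 0.057). On day 4 the value ran from -3.05 without EXP replicate 3 to -1.52 without EXP replicate 1. The summed fibroblast markers, most of whose counts are Col1a1, Col1a2 and Col3a1, were also lower in EXP, with day 4 values of 85600, 165000 and 283000 CPM in EXP replicates 1, 2 and 3. Of the 10 markers, 4, 5 and 3 were called lower and 1, 1 and 2 higher on days 1, 2 and 4. Of all tested genes, 14.7%, 5.71% and 9.66% were called lower and 13.9%, 7.72% and 12.8% higher. The part of these markers in the result was not tested.

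Col18a1 gave the same pattern at a smaller size. It was at 375, 299, 441 and 271 CPM in CTRL and 154, 110.4, 91.5, 138 and 187 CPM in EXP on day 1. On day 2 the CTRL libraries were at 351, 343 and 466 CPM and the EXP libraries at 117, 197 and 196 CPM. On day 4 they were at 378, 352, 508 and 374 CPM and 77.5, 152 and 235 CPM. No EXP library reached a CTRL library of its day. EXP against CTRL gave a log2 fold change of -1.35 with an SE of 0.26 (adjusted p 0.000718) on day 1, -1.18 with an SE of 0.32 (adjusted p 0.0184) on day 2 and -1.38 with an SE of 0.31 (adjusted p 0.00445) on day 4. The day 2 call was lost without CTRL replicate 3 (-1.05, adjusted p 0.071) and without EXP replicate 1 (-0.97, adjusted p 0.117). The effect on Col15a1 and on Col18a1 was not shown to differ between days (joint test of the 3 days, adjusted p 0.774 and 0.943).

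The 2 genes lie on different chromosomes, and their promoters are shown because the genes fell together. The stretches before the start sites were taken from RefSeq on GRCm38.p6, a build other than the authors' mm39, and were shortened where an annotated exon began. For Col18a1 the upstream start of 2 is given. Capitals mark GGGCGG and CCAAT on either strand (CCGCCC and ATTGG where they read on the other strand). Col15a1 is at chr4:47207762-47208011, plus strand, and Col18a1 at chr10:77166549-77166780, minus strand.
Col15a1: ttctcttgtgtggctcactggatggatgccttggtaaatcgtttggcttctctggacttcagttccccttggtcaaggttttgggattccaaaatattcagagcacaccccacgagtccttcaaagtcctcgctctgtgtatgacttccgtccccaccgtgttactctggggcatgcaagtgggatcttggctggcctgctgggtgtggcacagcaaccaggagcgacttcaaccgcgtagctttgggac
Col18a1: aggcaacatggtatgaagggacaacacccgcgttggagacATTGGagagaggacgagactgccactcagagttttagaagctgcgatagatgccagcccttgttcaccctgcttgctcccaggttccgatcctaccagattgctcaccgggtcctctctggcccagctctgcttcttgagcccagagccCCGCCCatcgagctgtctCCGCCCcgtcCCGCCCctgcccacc
In the full 250 bases before the start, the Col18a1 promoter held 3 matches to GGGCGG, the GC box, and 1 to CCAAT, with 62.0% G and C and 12 CpG dinucleotides. The window of the second Col18a1 start held no match to either, with 57.6% G and C and 3 CpG. The Col15a1 promoter also held no match, with 53.6% G and C and 8 CpG. Of 32536 windows of the same length before RefSeq starts, 33.0% held GGGCGG and 33.8% held CCAAT, and the medians were 52.4% G and C and 6 CpG. TATAAA and TGANTCA, searched on both strands and held by 12.3% and 6.73% of windows, matched in none of the 9 windows of the 8 members that had an entry; Lama4 and Lamc1 had none.

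Among the laminin chains, the 2 alpha chains were called in opposite directions on day 4, and on no other day were both called. Lama2 (ENSMUSG00000019899) encodes the alpha2 chain of muscle and nerve basement membranes, and Lama4 (ENSMUSG00000019846) the alpha4 chain of vessels and fat. On day 1, Lama2 was at 173, 282, 160.1 and 181 CPM in CTRL and 187, 89.8, 104, 107 and 144 CPM in EXP. The day 2 libraries held 189, 157 and 170.1 CPM in CTRL and 115, 137 and 146 CPM in EXP. For day 4 the values were 235, 197, 317 and 197 CPM in CTRL and 84.3, 134 and 186 CPM in EXP. The arms overlapped on day 1 through EXP replicate 1 and were apart on days 2 and 4. In the fit, the log2 fold change was -0.65 with an SE of 0.23 (adjusted p 0.041) on day 1, -0.37 with an SE of 0.29 (adjusted p 0.424) on day 2 and -0.81 with an SE of 0.27 (adjusted p 0.0379) on day 4. The calls rested on single libraries. On day 1 the adjusted p was 0.191 without CTRL replicate 2, 0.0518 without CTRL replicate 4, and 0.0946, 0.089 and 0.084 without EXP replicates 2, 3 and 4. On day 4 it was 0.0554 and 0.117 without CTRL replicates 1 and 3, and 0.211 and 0.0913 without EXP replicates 1 and 2.

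Lama4 was at 176, 181, 189 and 139 CPM in CTRL and 227, 154, 204, 154 and 221 CPM in EXP on day 1. By day 2 the CTRL libraries stood at 147, 184 and 210.1 CPM and the EXP libraries at 296, 187 and 274 CPM. By day 4 they stood at 184, 186, 231 and 159.9 CPM in CTRL and 456, 360.1 and 201 CPM in EXP. The arms overlapped on all 3 days, on day 4 through EXP replicate 3. The log2 fold change was 0.17 with an SE of 0.21 (adjusted p 0.582) on day 1, 0.49 with an SE of 0.25 (adjusted p 0.213) on day 2 and 0.83 with an SE of 0.23 (adjusted p 0.0153) on day 4. Without EXP replicate 1 the day 4 value was 0.56 (adjusted p 0.139), and without EXP replicate 2 it was 0.77 (adjusted p 0.0646).

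Lamb1 (ENSMUSG00000002900) and Lamc1 (ENSMUSG00000026478) encode the beta1 and gamma1 chains, which most laminin trimers share. On day 1, Lamb1 was at 322, 275, 309 and 226 CPM in CTRL and 166, 95.5, 97.7, 115 and 116 CPM in EXP. On day 2 it was at 199, 159 and 196 CPM in CTRL and 135, 128 and 215 CPM in EXP. On day 4 it was at 274, 232, 357 and 221 CPM in CTRL and 493, 233 and 164 CPM in EXP. The arms were apart on day 1 only, where every EXP library was lower. On day 4 EXP replicate 1 lay above all CTRL libraries and EXP replicate 3 below them. EXP against CTRL gave a log2 fold change of -1.26 with an SE of 0.25 (adjusted p 0.000977) on day 1, -0.21 with an SE of 0.31 (adjusted p 0.706) on day 2 and 0.13 with an SE of 0.29 (adjusted p 0.784) on day 4. Lamc1 passed on no day. Its CPM ran from 73.6 to 235 in EXP and from 82.5 to 145 in CTRL on day 1. Its day 2 libraries were at 80.7, 92.5 and 78.7 CPM in CTRL and 69.4, 76.1 and 78.5 CPM in EXP, with the EXP libraries just below, and its day 4 levels overlapped. The log2 fold changes of Lamc1 were 0.16 with an SE of 0.32 (adjusted p 0.746), -0.17 with an SE of 0.38 (adjusted p 0.819) and 0.21 with an SE of 0.36 (adjusted p 0.712) on days 1, 2 and 4.

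Nid1 (ENSMUSG00000005397), which encodes nidogen-1, the link between laminin gamma1 and collagen IV, had the largest rise among the members. On day 1 it was at 552, 508, 560.3 and 354 CPM in CTRL and 588, 383, 319, 391 and 464 CPM in EXP. The day 2 libraries held 349, 293 and 433 CPM in CTRL and 476, 398 and 681 CPM in EXP. For day 4 the values were 519, 396, 588 and 381 CPM in CTRL and 1525, 1439 and 734 CPM in EXP. The arms overlapped on days 1 and 2, and on day 4 all 3 EXP libraries were above all 4 CTRL libraries, EXP replicate 3 by the least. In the fit, the log2 fold change was -0.20 with an SE of 0.23 (adjusted p 0.548) on day 1, 0.53 with an SE of 0.28 (adjusted p 0.228) on day 2 and 1.39 with an SE of 0.26 (adjusted p 0.00164) on day 4. The day 4 call was kept when each library of that day was left out in turn, with values from 1.21 to 1.66.

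Hspg2 (ENSMUSG00000028763), which encodes the core protein of the heparan sulfate proteoglycan perlecan, was low on day 1 and not on day 4. On day 1 it was at 217, 164, 182 and 166 CPM in CTRL and 113, 76.9, 106, 97.2 and 141 CPM in EXP, with the arms apart. By day 2 the CTRL libraries stood at 158, 209.8 and 191 CPM and the EXP libraries at 117, 122 and 178 CPM. By day 4 they stood at 209, 161, 218 and 188 CPM in CTRL and 420.5, 302 and 168 CPM in EXP. EXP replicates 1 and 2 were above all CTRL libraries of day 4, and EXP replicate 3 lay within them. The log2 fold change was -0.77 with an SE of 0.21 (adjusted p 0.01) on day 1, -0.42 with an SE of 0.26 (adjusted p 0.312) on day 2 and 0.61 with an SE of 0.24 (adjusted p 0.0728) on day 4. The day 4 value rested on single EXP libraries. It was 0.28 without EXP replicate 1 (adjusted p 0.505) and 0.90 without EXP replicate 3, where it passed (adjusted p 0.00573).

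The promoters of Nid1 and Hspg2 are shown beside those of the multiplexins because both genes were called higher on day 4 than on day 1 within EXP, which the multiplexins were not. Lamb1 and Lama4 were called higher in that contrast as well. The Lamb1 stretch is not shown, and Lama4 had no promoter entry. The source, build and capitals are as above. Nid1 is at chr13:13437352-13437550, plus strand, and Hspg2 at chr4:137468553-137468768, plus strand.
Nid1: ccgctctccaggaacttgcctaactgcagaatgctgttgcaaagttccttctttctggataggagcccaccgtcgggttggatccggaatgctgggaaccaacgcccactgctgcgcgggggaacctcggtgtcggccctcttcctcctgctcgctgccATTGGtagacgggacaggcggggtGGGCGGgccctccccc
Hspg2: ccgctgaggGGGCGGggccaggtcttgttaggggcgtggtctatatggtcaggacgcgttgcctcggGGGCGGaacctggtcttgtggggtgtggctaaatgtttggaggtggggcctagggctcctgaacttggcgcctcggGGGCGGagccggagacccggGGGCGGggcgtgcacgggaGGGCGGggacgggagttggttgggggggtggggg
In 250 bases before the start, Hspg2 held 5 matches to GGGCGG and 0 to CCAAT, with 70.0% G and C, and Nid1 held 1 of each, with 64.4%. GGGCGG also stood in the windows of Col4a2 (2 matches) and Lamb1 (2), and the windows of Col4a1 and Lama2 held 0. The starts of Col4a1 and Col4a2 overlap, so their windows flank a shared start region, and each lies on the transcribed side of the other gene. Their counts of matches are therefore not those of separate promoters.

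Col4a1 (ENSMUSG00000031502) and Col4a2 (ENSMUSG00000031503) encode the alpha1 and alpha2 chains of collagen IV and are read in opposite directions from neighbouring starts. Their first exons overlap by 22 bases at chr8:11312805-11312826 on GRCm38.p6. On day 1, Col4a1 was at 1642, 1340, 1475 and 1005 CPM in CTRL and 1543, 1206, 1075, 906 and 1371 CPM in EXP. On day 2 it was at 814, 614 and 804 CPM in CTRL and 1059, 813 and 1239 CPM in EXP. On day 4 it was at 726, 634, 1061 and 1063 CPM in CTRL and 1317, 1220 and 1239 CPM in EXP. All EXP libraries of day 4 were above the CTRL libraries, and those of days 1 and 2 overlapped them. EXP against CTRL gave a log2 fold change of -0.16 with an SE of 0.20 (adjusted p 0.569) on day 1, 0.48 with an SE of 0.24 (adjusted p 0.196) on day 2 and 0.53 with an SE of 0.22 (adjusted p 0.088) on day 4, and none passed. On the low side of that split, the day 4 value was 0.89 and passed (adjusted p 0.0227), and with the split in the model it was 0.81 (adjusted p 0.00951). That model ended the Lama2 calls of day 1 (-0.58, adjusted p 0.0793) and day 4 (-0.69, adjusted p 0.0993).

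Col4a2 was at 772, 710.5, 656 and 563 CPM in CTRL and 841, 593, 603, 532 and 758 CPM in EXP on day 1. The day 2 libraries held 532, 362 and 484 CPM in CTRL and 558, 523 and 719 CPM in EXP. For day 4 the values were 377, 334, 605 and 573 CPM in CTRL and 735, 742 and 763 CPM in EXP. The 3 EXP libraries of day 4 lay close together and above all CTRL libraries, of which replicates 3 and 4, on the high side of the split, were the nearest. In the fit, the log2 fold change was -0.02 with an SE of 0.19 (adjusted p 0.945) on day 1, 0.38 with an SE of 0.23 (adjusted p 0.289) on day 2 and 0.66 with an SE of 0.21 (adjusted p 0.031) on day 4. The day 4 call was lost without CTRL replicate 1 (0.57, adjusted p 0.081), CTRL replicate 2 (0.53, 0.0852), EXP replicate 1 (0.67, 0.0778) or EXP replicate 2 (0.64, 0.0877). Within the low side of the split the day 4 value was 1.07 (adjusted p 0.00866), over 1.5 times the value from all libraries. Besides this pair, Lama2, Nid1 and Col15a1 have exons that share 631, 143 and 14 bases with an antisense gene in GENCODE M21, and Col4a2 shares 43. Whether reads were counted by strand is not given in the sources used here, so the counts of these 5 members are uncertain to that extent.

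**Figure D2:**
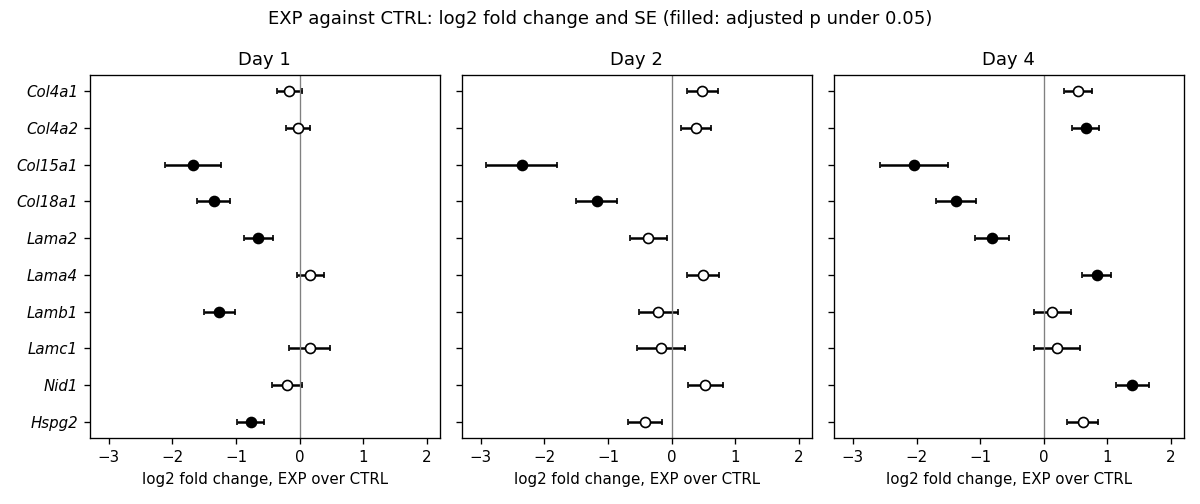
Log2 fold change of EXP against CTRL for the 10 members on days 1, 2 and 4, with the standard error as bars and filled points where the adjusted p was under 0.05. Col15a1 and Col18a1 stay below 0 on all days, while Nid1 and Hspg2 move from below 0 on day 1 to above 0 on day 4.

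Counted over the set, 5 of 10 members were lower and 0 higher on day 1, against 14.7% and 13.9% of all tested genes. On day 2, 2 were lower and 0 higher, against 5.71% and 7.72%. On day 4, 3 were lower and 3 higher, against 9.66% and 12.8%. The median log2 fold change of the members was -0.43, -0.19 and 0.37 on days 1, 2 and 4, and that of all tested genes was 0.02, 0.02 and 0.03. EXP levels without overlap below CTRL were found for 4 members on day 1 (Col15a1, Col18a1, Lamb1 and Hspg2), against 12.2% of all tested genes. On day 2 they were found for 4 (Col15a1, Col18a1, Lama2 and Lamc1), against 18.4%, and on day 4 for 3 (Col15a1, Col18a1 and Lama2), against 11.8%. EXP levels above CTRL without overlap were found on day 4 for 3 members (Col4a1, Col4a2 and Nid1), against 13.8%. The day 2 count of members called was 0 without EXP replicate 1 and 1 without CTRL replicate 3. Calls over all tested genes fell there as well, to 891 of 18265 and 1573 of 18337, from 2359 of 17554. The day 4 count of members was 3 without EXP replicate 1 and 2 without EXP replicate 2. With the libraries of day 4 fitted alone it was 1, Nid1 (1.37, adjusted p 0.037). In these fits of day 4, 1633 of 18149, 2001 of 18277 and 1128 of 15845 tested genes were called, in place of 3943 of 17554. With library totals in place of TMM, the median of all genes was 0.21, 0.49 and 0.36 on the 3 days, and the split of the calls moved towards higher. The calls were then 3 lower and 0 higher on day 1, 1 lower and 4 higher on day 2, and 2 lower and 5 higher on day 4. Col4a1, Col4a2, Lama4 and Nid1 were the members higher on day 2 under that scaling, and Col15a1 stayed lower on all 3 days. Calls were lost for Lama2 on days 1 and 4 (-0.45 and -0.54, adjusted p 0.0957 and 0.0818), Hspg2 on day 1 (-0.58, adjusted p 0.0889) and Col18a1 on day 2 (-0.73, adjusted p 0.0614).

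Within the sides of the library split, the direction of the day 1 calls held while fewer passed. On the high side, with 3 CTRL and 2 EXP libraries, 2736 of 17554 tested genes passed, in place of 5017. Col18a1 was there at -1.49 (adjusted p 0.0144), Lamb1 at -1.21 (0.0336) and Hspg2 at -0.98 (0.0387). Col15a1 was at -1.66 (0.118) and Lama2 at -0.57 (0.274). On the low side, with 1 CTRL library and 3 EXP libraries, the lone CTRL library being assumed to vary like the other groups, the same 5 genes were at -0.96, -1.05, -0.53, -1.66 and -0.61, and 0 members passed. Day 2 had no library on the high side. For day 4 the low side held 2 CTRL and 3 EXP libraries and gave 4 calls, against 1562 of 17554 tested genes. The members called were Col4a1, Col4a2, Nid1 (1.43, adjusted p 0.0138) and Col18a1 (-1.24, adjusted p 0.0395). There Col15a1 was at -1.98 (0.0666), Lama4 at 0.87 (0.0717) and Lama2 at -0.68 (0.196). This split was found in the data, and these values were added after the data were seen.

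Whether the expander effect itself changed over the days was tested jointly over the 3 days in the same fit. It passed for 3 members, against 8.82% of all tested genes. These were Nid1 (adjusted p 0.0194), Hspg2 (adjusted p 0.0242) and Lamb1 (adjusted p 0.0456), whose values on the 3 days are given above. The Lamb1 call was lost in 18 of 22 fits that left out a library, with adjusted p between 0.0527 and 0.092 in those fits. The Nid1 call was lost without day 4 EXP replicate 2 (0.0559). The Hspg2 call was lost without day 4 CTRL replicate 2 (0.0532), EXP replicate 1 (0.0887) or EXP replicate 2 (0.0632). For Lama4, Col4a1 and Col4a2, whose rise was largest on day 4, the adjusted p was 0.326, 0.194 and 0.242, so that a difference between days was not shown.

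Over time within the EXP arm, Nid1, Hspg2, Lamb1 and Lama4 rose. Between day 1 and day 4 the log2 change was 1.52 with an SE of 0.25 (adjusted p 0.000294) for Nid1 and 1.48 with an SE of 0.23 (adjusted p 0.000206) for Hspg2. It was 1.33 with an SE of 0.27 (adjusted p 0.0021) for Lamb1 and 0.82 with an SE of 0.22 (adjusted p 0.0134) for Lama4. These 4 members were called higher, against 12.1% of all tested genes. Without day 4 EXP replicate 1, 2 members and 1399 of 18149 tested genes were called higher. The multiplexins were not called in this contrast, with Col15a1 at 0.09 with an SE of 0.48 (adjusted p 0.924) and Col18a1 at 0.18 with an SE of 0.28 (adjusted p 0.708). Days of harvest may also be days of processing, which cannot be told apart here. No member passed in the other time contrasts. Between days 1 and 2 in EXP 0 passed, against 2.63% of all tested genes, with 0 members at an unadjusted p under 0.05 and 0 by DESeq2. Between days 2 and 4 in EXP 0 passed, against 0.387%, with 4 members at an unadjusted p under 0.05 and 2 called by DESeq2, and 3 passed without day 4 EXP replicate 3. In CTRL 0 passed between days 1 and 2 (0.296% of all genes, 3 members unadjusted, 1 by DESeq2), between days 2 and 4 (0.0057%, 0 and 0) and between days 1 and 4 (0.131%, 2 and 0). Col4a1 in CTRL had a log2 change of -0.88 with an SE of 0.23 (adjusted p 0.0932) from day 1 to day 2, the nearest to a call in that arm.

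Ratios of 2 members within a library do not depend on how libraries are scaled, and 4 of them were compared. For the laminin alpha chains, the counts of Lama4 per count of Lama2 were 1.01, 0.643, 1.18 and 0.771 in CTRL and 1.21, 1.72, 1.95, 1.44 and 1.54 in EXP on day 1. On day 2 they were 0.775, 1.17 and 1.24 in CTRL and 2.57, 1.37 and 1.87 in EXP. On day 4 they were 0.784, 0.944, 0.728 and 0.813 in CTRL and 5.41, 2.69 and 1.08 in EXP. Every EXP library had a higher ratio than every CTRL library of its day. The difference of mean log2 ratios was 0.82 on day 1, 0.85 on day 2 and 1.62 on day 4. The exact two-sided permutation p was 0.0159, 0.1 and 0.0571, the smallest that each day's libraries allow, and 0.0952, 0.196 and 0.196 after adjustment over the 12 tests by day. With the libraries permuted within days over all 22, the mean difference was 1.10 (exact permutation p 1.13e-05, the smallest that these 88200 assignments allow, adjusted over 4 ratios 4.54e-05). The lowest and highest mean differences with a library left out were 0.91 and 1.30.

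Col18a1 per Col15a1 was higher in EXP over the days together. The ratios of counts were 2.26, 2.02 and 2.47 in CTRL and 6.97, 3.9 and 5.98 in EXP on day 2, without overlap. On day 4 they were 2, 3, 2.98 and 2.31 in CTRL and 15.4, 4.64 and 2.99 in EXP, with overlap. The log2 difference was 0.31, 1.28 and 1.24 on days 1, 2 and 4 (exact permutation p 0.222, 0.1 and 0.114; adjusted 0.296, 0.196 and 0.196). Over the days together it was 0.94 (exact permutation p 0.000522, adjusted 0.00104). Lamb1 per Lamc1 was lower in EXP on day 1, by a log2 difference of -1.33 without overlap (exact permutation p 0.0159, the smallest possible, adjusted 0.0952). On days 2 and 4 it differed by -0.08 and -0.23 (exact permutation p 0.9 and 0.743). Over the days together the difference was -0.55 (exact permutation p 0.0416, adjusted 0.0554), and it passed in 5 of 22 fits with a library left out. Col4a1 per Col4a2 stayed between 1.53 and 2.25 counts in all 22 libraries, and the difference of the arms over the days together was -0.06 (exact permutation p 0.204).

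**Figure D3:**
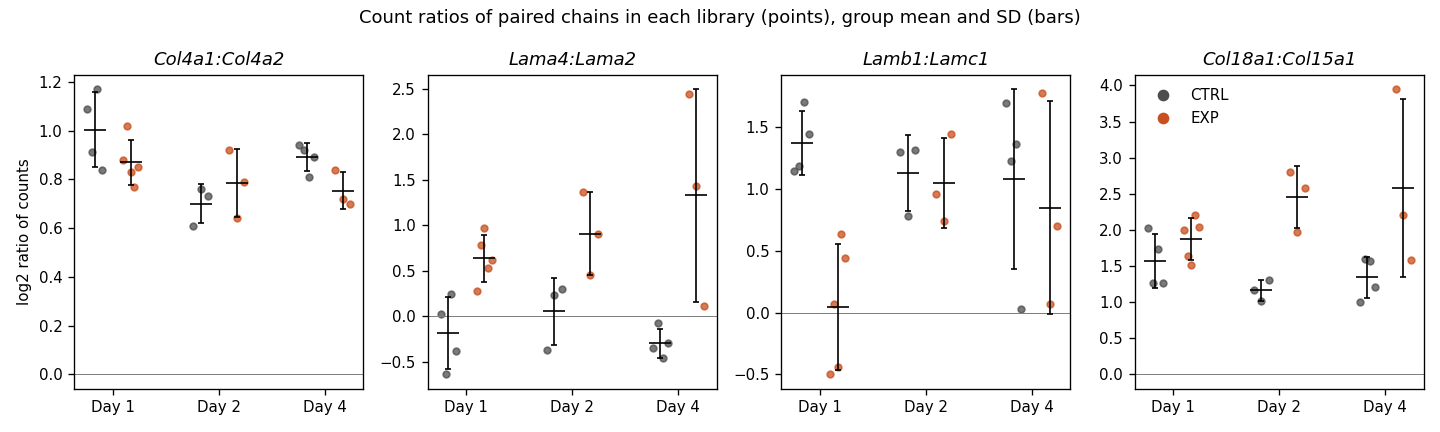
Log2 ratio of counts of 4 pairs of members in each of the 22 libraries, by day and arm. The ratio of Lama4 to Lama2 is higher in every EXP library than in the CTRL libraries of its day, and the ratio of Col4a1 to Col4a2 is nearly flat.

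Levels of different members were compared per kilobase of exon. In CTRL on day 1 the order was Col4a1 at 183 CPM per kb, Col4a2 at 102, Nid1 at 71.1, Col18a1 at 49.4 and Lamb1 at 28.5. Below them came Col15a1 at 18.3, Lama4 at 14.2, Lamc1 at 13.4, Hspg2 at 12.7 and Lama2 at 12.2. The ranges of Nid1 and Col18a1 overlapped, as did those of each neighbouring pair from Col15a1 down. In EXP on day 4 the order had changed at both ends. Nid1 came first at 178 CPM per kb, followed by Col4a1 at 169 and Col4a2 at 113, and the ranges of Nid1 and Col4a1 overlapped. Lamb1 at 29.9, Lama4 at 28.1, Col18a1 at 22, Hspg2 at 20.7 and Lamc1 at 18.8 followed with overlapping ranges. Lama2 at 8.25 and Col15a1 at 6.10 came last. In EXP on days 1 and 2 Col15a1 was also last, at 5.72 and 5.25 CPM per kb, whereas in CTRL it stood at 27.0 on day 2 and 25.1 on day 4. Col4a1 led in the remaining 5 groups.

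Across the 22 libraries, the log2 CPM of some members moved together, which is given as a description, since the libraries share days, arms and scaling. Pearson's r was 0.94 for Col4a1 with Col4a2 and 0.93 for Col15a1 with Col18a1, and it was 0.93 and 0.79 after the group means were removed. It was 0.84 for Lamb1 with Hspg2 and 0.82 for Lama4 with Nid1 (0.75 and 0.77 after removal). It was 0.82 for Col18a1 with Lama2 (0.62). The lowest value was -0.67, for Col15a1 with Lama4 (-0.59). Lamc1 had no r above 0.45 with another member before removal, and its highest after removal was 0.57, with Col4a2. Some pairs changed more on removal. Lamb1 with Nid1 went from 0.55 to 0.85, and Lamb1 with Col15a1 from 0.16 to -0.60, the lowest after removal. Among 9789 other genes averaging 5 CPM or more, the genes most like Col15a1 were Sulf2, an extracellular sulfatase of heparan sulfate (0.98), Cdh4 (0.98) and Clec11a (0.97). Those most like Col18a1 were Tmem43 (0.96), Cybrd1 (0.96) and Kif26a (0.95). Among those most like Nid1 were Dbn1, the actin-binding drebrin (0.88), and Tmc6 (0.88). For Hspg2 they were Plekha2 (0.90), Adamts14 (0.88) and Serpinb1a (0.86), and for Lama2 they were Col6a1 (0.87), Pcdh20 (0.87) and Fam49a (0.86). Col4a1 and Col4a2 shared Prep (0.79 and 0.81).

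Other genes of the basement membrane were taken from a list of 32, of which 28 were tested. On day 1, 7 were lower and 1 higher, on day 2, 4 were lower and 0 higher, and on day 4, 3 were lower and 3 higher, with median log2 fold changes of -0.66, -0.78 and -0.64. Over all tested genes, 14.7% were lower and 13.9% higher on day 1, 5.71% and 7.72% on day 2, and 9.66% and 12.8% on day 4, with medians of 0.02, 0.02 and 0.03, so that the day 4 counts of the list were near those shares. Nid2, which encodes the second nidogen, was higher on day 4, as Nid1 was. It was at 27.9, 18.6, 23.8 and 16.7 CPM in CTRL and 488, 111 and 48.8 CPM in EXP, a log2 fold change of 3.31 with SE 0.68 (adjusted p 0.00309), which was 1.88 and missed the threshold without EXP replicate 1 (adjusted p 0.0515). On day 1 Nid2 was lower, at -1.99 with SE 0.59 (adjusted p 0.0157), a call lost without CTRL replicate 3 (-1.29, adjusted p 0.11). Hmcn1, a hemicentin, was lower on day 1 (log2 fold change -1.47 with SE 0.23, adjusted p 0.000101). Hmcn2 was higher on day 4 (log2 fold change 2.03 with SE 0.68, adjusted p 0.0398), a call lost without CTRL replicate 1, 2 or 3 or EXP replicate 2 (adjusted p 0.058, 0.0861, 0.101 and 0.274), its value being 1.21 without the last. On day 2 Col4a5, another collagen IV chain, was lower (log2 fold change -2.18 with SE 0.54, adjusted p 0.0114). So was Sparc, a collagen-binding matricellular protein (log2 fold change -1.62 with SE 0.45, adjusted p 0.0202, lost without CTRL replicate 1 at 0.062, EXP replicate 1 at 0.118 or EXP replicate 3 at 0.0675). Frem1 was lower too (log2 fold change -1.23 with SE 0.34, adjusted p 0.0209, lost without CTRL replicate 1 at 0.0894 or EXP replicate 1 at 0.111). It was also lower on day 1 (log2 fold change -1.17 with SE 0.28, adjusted p 0.00355) and day 4 (-1.48 with SE 0.33, adjusted p 0.00435). The count of the list on day 2 was 2 without CTRL replicate 1 and 1 without EXP replicate 1. Over all tested genes, 1465 of 18383 and 891 of 18265 were called in those fits.

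All 12 listed genes that modify, fold, export or crosslink collagen IV were tested. Of them, 7 were lower and 0 higher on day 1, and 4 were lower and 2 higher on day 2. On day 4, 1 was lower and 2 were higher. Their median log2 fold changes were -0.70, -0.43 and -0.05. Of all tested genes 28.6%, 13.4% and 22.5% were called on these days in either direction, and the 3 genes of day 4 were near that share. P4ha2, a prolyl 4-hydroxylase subunit, was lower on all 3 days, at -2.28 with SE 0.21 (adjusted p 1.47e-06), -1.79 with SE 0.25 (adjusted p 0.000183) and -1.01 with SE 0.23 (adjusted p 0.00572). Serpinh1, the collagen chaperone HSP47, was at 907 ± 412 CPM in CTRL (SD, n = 4) against 255 ± 112 CPM in EXP (SD, n = 5) on day 1 (log2 fold change -1.83 with SE 0.32, adjusted p 0.000295). On day 2 it was at -1.41 with SE 0.39 (adjusted p 0.0208), a call lost without CTRL replicate 3, EXP replicate 1 or EXP replicate 3 (adjusted p 0.0849, 0.0816 and 0.0867). Loxl2, a lysyl oxidase that crosslinks collagen IV, was lower on day 1 (log2 fold change -1.33 with SE 0.24, adjusted p 0.000425) and on day 2 (-1.09 with SE 0.30, adjusted p 0.0191). Pxdn, the peroxidasin that forms the sulfilimine bond of collagen IV, was higher on day 4, at 92.9, 48.3, 110 and 106 CPM in CTRL and 292, 222 and 133 CPM in EXP (log2 fold change 1.27 with SE 0.30, adjusted p 0.00614, 0.0526 without EXP replicate 1). On day 2 it was also higher (log2 fold change 1.13 with SE 0.33, adjusted p 0.0256), a call lost without any of 5 of the 6 libraries, CTRL replicates 1, 2 and 3 and EXP replicates 1 and 3 (adjusted p 0.101, 0.066, 0.0722, 0.0792 and 0.116). Plod2, a lysyl hydroxylase, had the largest change of the list. It rose on day 4 from 1.55, 0.944, 1.22 and 1.69 CPM in CTRL to 60.4, 41.9 and 6.64 CPM in EXP (log2 fold change 4.75 with SE 0.59, adjusted p 0.000128). On day 2 it was also higher, at low levels with means of 0.27 CPM in CTRL and 3.46 CPM in EXP (log2 fold change 3.63 with SE 0.72, adjusted p 0.00278). The day 2 count of the list was 3 without CTRL replicate 3 or EXP replicate 1, and the day 4 count was 6 without EXP replicate 3. Over all tested genes, 1573 of 18337, 891 of 18265 and 5011 of 18336 were called in those fits.

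Of 16 receptors, 15 were tested. On day 1, 2 were lower and 1 higher, on day 2, 2 were higher and 0 lower, and on day 4, 2 were higher and 3 lower, with median log2 fold changes of -0.10, 0.28 and -0.46. Over all tested genes 28.6%, 13.4% and 22.5% were called in either direction, so that the counts of days 1 and 2 were below or near the background. Dag1, which encodes dystroglycan, a receptor of laminin alpha2, was lower on day 1, at 436 ± 71.9 CPM in CTRL (SD, n = 4) against 212 ± 50.1 CPM in EXP (SD, n = 5) (log2 fold change -1.04 with SE 0.22, adjusted p 0.00159). It was also lower on day 4 (log2 fold change -0.88 with SE 0.26, adjusted p 0.0201). Without day 4 CTRL replicate 3 or EXP replicate 1, 0 receptors were called lower on day 4, so that call was lost there. The rest of this paragraph gives other receptors. The syndecans, transmembrane heparan sulfate proteoglycans, were split on day 1. Sdc2 was lower (log2 fold change -0.76 with SE 0.17, adjusted p 0.00228) and Sdc4 higher (log2 fold change 0.82 with SE 0.25, adjusted p 0.0183, 0.0626 without CTRL replicate 1). On day 4 Sdc4 was lower (log2 fold change -0.82 with SE 0.29, adjusted p 0.0466). Like that of Dag1, this day 4 call was lost without CTRL replicate 3 or EXP replicate 1. Without CTRL replicate 4 or EXP replicate 2, 2 and 1 receptors were called lower, so the day 4 calls of Dag1 and Sdc4 were not both kept. Itga7, the alpha chain of a laminin-binding integrin, was higher on day 2 (log2 fold change 2.82 with SE 0.62, adjusted p 0.00532) and on day 4 (log2 fold change 2.94 with SE 0.55, adjusted p 0.00157), from a low level of 2.02 ± 1.24 CPM (SD, n = 4) in CTRL to 15.5 ± 9.63 CPM (SD, n = 3) in EXP on day 4. Itga1, the alpha chain of a collagen IV-binding integrin, was higher on day 2 (log2 fold change 2.51 with SE 0.47, adjusted p 0.00181). On day 4 Itgb4 was lower (log2 fold change -1.98 with SE 0.65, adjusted p 0.0351) and Sdc1 higher (log2 fold change 1.22 with SE 0.43, adjusted p 0.0447). The Itgb4 call was lost without CTRL replicate 3, EXP replicate 1 or EXP replicate 2 (adjusted p 0.108, 0.161 and 0.107). That of Sdc1 was lost without any CTRL library (0.0693, 0.0839, 0.0713 and 0.0924 for replicates 1 to 4) or EXP replicate 1 (0.419, with a value of 0.57). The day 4 count of receptors was 1 without CTRL replicate 3 or EXP replicate 1, and 3 without CTRL replicate 4 or EXP replicate 2. Over all tested genes, 2732 of 17500, 1633 of 18149, 2868 of 17495 and 2001 of 18277 were called in those fits.

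Of 15 proteases and inhibitors that act on the basement membrane, all tested, 4 were higher and 3 lower on day 1, 6 higher and 0 lower on day 2, and 8 higher and 2 lower on day 4. The median log2 fold changes were -0.12, 1.06 and 0.57. Among all tested genes, 13.9% were higher and 14.7% lower on day 1, 7.72% and 5.71% on day 2, and 12.8% and 9.66% on day 4. Mmp3, the stromelysin that cleaves laminin, nidogen and collagen IV, was at 1890 ± 645 CPM in CTRL (SD, n = 4) against 7040 ± 1740 CPM in EXP (SD, n = 5) on day 1 (log2 fold change 1.90 with SE 0.29, adjusted p 9.53e-05). Mmp10, a second stromelysin, was higher on day 2 (log2 fold change 1.92 with SE 0.41, adjusted p 0.00433). The plasminogen activators rose as well. Plat was higher on day 2 (log2 fold change 2.02 with SE 0.41, adjusted p 0.00359) and on day 4 (log2 fold change 2.63 with SE 0.38, adjusted p 0.000291), and Plau on day 4, at 8.03, 5.88, 5.91 and 8.48 CPM in CTRL and 27.1, 120 and 24.0 CPM in EXP (log2 fold change 3.01 with SE 0.47, adjusted p 0.000466; 1.84, still called, without EXP replicate 2). The inhibitors went both ways. Timp1 was higher on days 1, 2 and 4 (2.38, 3.24 and 3.02, adjusted p 2.13e-05, 4.15e-05 and 8.78e-05), and Timp3, an inhibitor that binds to the matrix, was lower on day 1 (log2 fold change -1.94 with SE 0.31, adjusted p 0.000159).

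**Figure D4:**
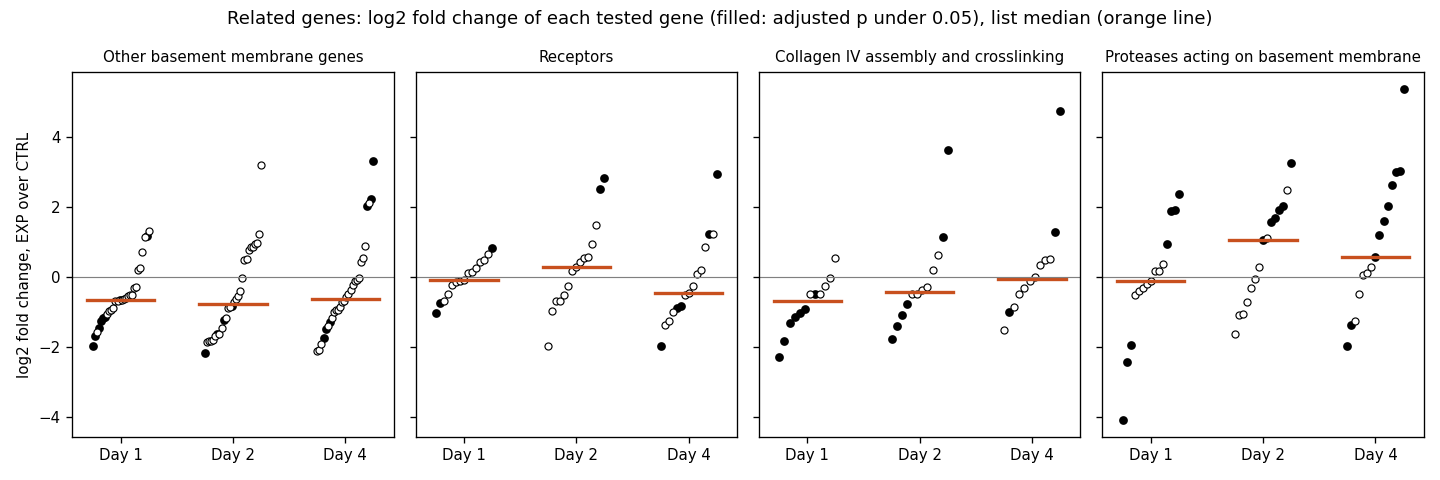
Log2 fold change of EXP against CTRL for the tested genes of 4 lists related to the basement membrane, by day, with filled points where the adjusted p was under 0.05 and a line at the median of each list. The medians of the protease list are above 0 on days 2 and 4, and those of the other basement membrane genes are below 0 on all 3 days.

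On day 4 the 3 EXP libraries differed from each other in the members and in markers of other cell types. Nid1 was at 1525, 1439 and 734 CPM and Col15a1 at 5.02, 32.7 and 78.5 CPM in EXP replicates 1, 2 and 3. The sum of 7 adipocyte markers, whose cells make their own basement membrane, was 43.6, 181 and 514 CPM in these libraries and 0.587 to 2.23 CPM in CTRL. It was 8.03 to 88.9 CPM in EXP and 0.249 to 3.13 CPM in CTRL on day 2, and 0.835 to 9.70 and 1.82 to 24.9 CPM on day 1. All 6 tested adipocyte markers were called higher on day 4, 2 on day 2 and 0 on day 1, against 12.8%, 7.72% and 13.9% of all tested genes. Plin1 and Lep were at 0 in all 4 CTRL libraries of day 4, and Adipoq ran from 0 to 52.9 CPM in EXP. The sum of 8 endothelial markers was 28.1, 56.0 and 24.2 CPM in EXP and 4.16 to 12.1 CPM in CTRL on day 4. Most of it was Tek, at 16.9 to 44.9 CPM in EXP and 2.62 to 7.35 in CTRL. Kdr was at 0.993 to 2.57 CPM in EXP and 0 to 0.387 in CTRL, without overlap. Pecam1 was at 1.23 to 3.68 and 0.168 to 1.76 CPM, and Cdh5 at 0.0537 to 0.590 and 0 to 0.193 CPM, with overlap. Emcn, Cldn5, Egfl7 and Tie1 also overlapped between the arms. Of 7 tested endothelial markers 2 were called higher on day 4, against 12.8% of all tested genes. The sum of 9 pericyte and smooth muscle markers overlapped between the arms on day 4, at 58.0 to 86.8 CPM in EXP and 63.4 to 130 CPM in CTRL. It was lower in EXP on day 1, at 28.8 to 49.0 against 52.7 to 102 CPM, and on day 2, at 61.1 to 69.9 against 91.1 to 103 CPM. Acta2, one of these markers, was instead higher in EXP on day 2, at 11.7 to 31 against 1.44 to 6.11 CPM. On day 4 Acta2 was at 15.5 to 32.8 against 2.39 to 6.29 CPM. Of the 9 markers, all tested, 0, 1 and 1 were called higher and 2, 1 and 0 lower on days 1, 2 and 4. Of all tested genes, 13.9%, 7.72% and 12.8% were called higher and 14.7%, 5.71% and 9.66% lower. The part of adipocyte, endothelial and pericyte RNA in the results for the members was not tested.

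**Figure D5:**
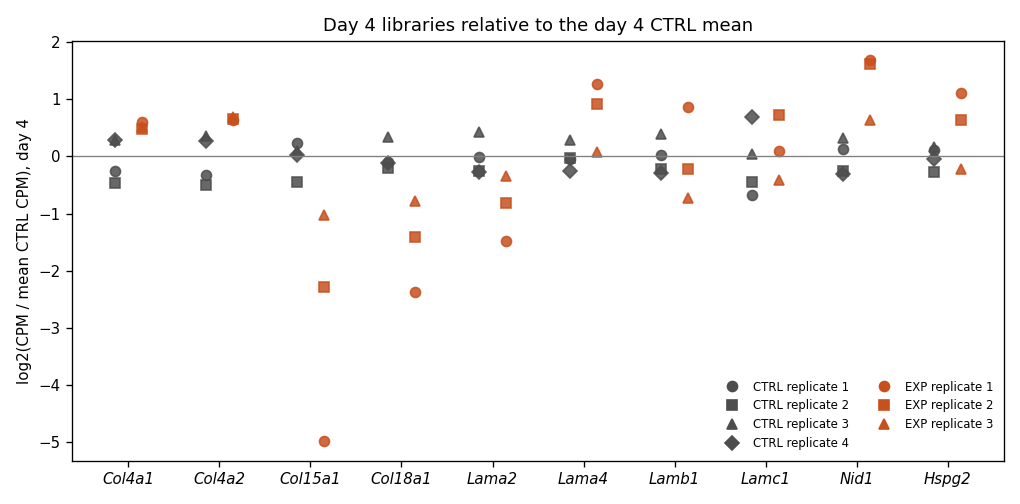
Level of each member in the 4 CTRL and 3 EXP libraries of day 4, as log2 of the CPM over the mean CTRL CPM of that day, with 1 point per library. EXP replicate 1 is the farthest below 0 for Col15a1 and Col18a1, and EXP replicate 3 is the lowest EXP library for Nid1, Lama4, Lamb1 and Hspg2.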

How the data were processed

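RNA was measured in 22 libraries of sorted mouse skin fibroblasts. The authors deposited raw read counts per gene with Ensembl identifiers. Reads were trimmed with Trimmomatic and the build was mm39, per the submitters' processing notes. The aligner, counting tool, annotation release and strand setting are not given in the sources used here. Symbols came from GENCODE M21, which named 52081 of 55414 identifiers; promoters came from RefSeq on GRCm38.p6.

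The filterByExpr function with the 6 groups and a minimum count of 10 set which genes were tested, TMM scaled the libraries, and edgeR 4.0.16 in R 4.3.3 fitted a mean per group to all 22 libraries (robust glmQLFit, glmQLFTest, 16 residual degrees of freedom). Each contrast had its own Benjamini-Hochberg adjustment, over 17554 genes. The 3 daily contrasts have separate controls, while the time contrasts share libraries with them. Log2 CPM used a prior count of 2, and ratios of counts a pseudocount of 0.5. Ratios were tested by exact permutation, two-sided. The tests were tested on simulated data with known changes. Replicates of a group gave a chi-square of 26.7 to 403 per degree of freedom, beyond sampling noise, so that no libraries were merged.

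The members and lists were chosen with earlier results of these data known. Named genes were the 10 members, up to 3 called genes a day from each related list with the largest change and a mean of at least 5 CPM, and the 3 genes best correlated with each member. Some genes that this rule names are not reported here. Alternatives were DESeq2 1.42.0, its size factors, voom with quality weights (limma 3.58.1), library totals, TMM without the 10 genes with most counts, no count filter, a replicate block, each day alone, each library left out, and the library split.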

Additional observations from a re-analysis of the deposited data

Results flagged for a closer look

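Of 42 sets of values (a member or a ratio in a group of 4 or 5 libraries) checked for a library far from the others, 2 had such a library, where chance gives 2.1. Col18a1 was at 508.1 CPM in day 4 CTRL replicate 3, and at 352.4 to 377.9 CPM in the other CTRL libraries of that day. Lamb1 was at 165.8 CPM in day 1 EXP replicate 1, and at 95.5 to 115.5 CPM in the other EXP libraries of that day. Both libraries belonged to the high side of the split, and neither lay among the libraries of the other arm.

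The effect of the expander differed between days for 3 members, by edgeR's joint test with Benjamini-Hochberg adjustment. The adjusted p was 0.0194 for Nid1, whose log2 fold change was -0.20, 0.53 and 1.39 on days 1, 2 and 4. It was 0.0242 for Hspg2, at -0.77, -0.42 and 0.61. It was 0.0456 for Lamb1, at -1.26, -0.21 and 0.13. No call held with a replicate block (adjusted p 0.0945, 0.0791 and 0.159), and that of Lamb1 was lost in 18 of 22 fits with a library left out.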

How the results depend on the processing

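All 30 log2 fold changes of the members by day kept their direction and their side of the threshold with DESeq2, with DESeq2's size factors and with TMM without the 10 genes with most counts. Library totals without TMM moved the median of all genes to 0.21, 0.49 and 0.36 on days 1, 2 and 4. Members called were then 3 on day 1, 5 on day 2 (4 higher, 1 lower) and 7 on day 4 (5 higher, 2 lower), and 1 between days 1 and 2 in CTRL. Over all genes the calls on days 1, 2 and 4 were then 3397, 4191 and 4271 higher and 1732, 441 and 1018 lower, in place of 2441, 1356 and 2248 higher and 2576, 1003 and 1695 lower. On day 1 the log2 fold change turned to 0.01 for Col4a1 and 0.16 for Col4a2. On day 2 it turned to 0.10 for Lama2, 0.27 for Lamb1, 0.29 for Lamc1 and 0.04 for Hspg2. With voom, 4 members were called on day 2 (2 higher, 2 lower), and Lamc1 on day 1 and Lamb1 on day 4 turned to -0.12 and -0.08. With each day fitted alone, 1 member and 1128 of 15845 tested genes were called on day 4. On days 1 and 2 such fits called 4593 of 15465 and 3514 of 15350 tested genes, in place of 5017 and 2359 of 17554. The main fit shares its estimate of the spread over the 6 groups. Pairs of day 4 EXP replicates had the largest chi-square per degree of freedom, 207 to 403. DESeq2 called 2 members between days 2 and 4 in EXP and 1 between days 1 and 2 in CTRL. Without the count filter 2 were called between days 2 and 4 in EXP, and 1 with the library split in the model. That model turned Col4a1 and Col4a2 on day 1 to 0.02 and 0.13, ended the Lama2 calls of days 1 and 4 (adjusted p 0.0793 and 0.0993) and added Col4a1 on day 4. Within its high side 3 members were called on day 1 and Col4a2 was at 0.01. Within its low side 0 were called on day 1, and Col4a1, Col4a2 and Nid1 were at 0.15, 0.16 and 0.14. The cause of these changes was not tested.

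The labels do not say whether same-numbered CTRL and EXP libraries are paired. The correlations of their deviations were 0.164, -0.015, -0.066 and 0.097 on day 1, -0.062, -0.003 and -0.007 on day 2, and 0.080, 0.146 and 0.109 on day 4. The EXP library matched the CTRL library of its own number best in every day 4 pair and in day 1 replicates 1 and 4. It did not in day 1 replicates 2 and 3 or in any day 2 pair. With a replicate block, 4, 2 and 6 members were called on days 1, 2 and 4 and 0 for the difference between days, while Lamb1 on day 4 turned to -0.09. The block lost Lama2 on day 1 (adjusted p 0.0516) and Lama4 on day 4 (0.69, adjusted p 0.107) and gained Col4a1 on day 4 (0.68, adjusted p 0.0376). For the difference between days the adjusted p was then 0.0945 for Nid1, 0.0791 for Hspg2 and 0.159 for Lamb1. Over all genes the block left 4337, 2210 and 2702 calls by day and 401 for the difference between days.

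With each library left out in turn, members called ranged from 4 to 5 on day 1, 0 to 2 on day 2 and 2 to 7 on day 4. Calls over all tested genes ranged from 4024 to 4830, 891 to 2177 and 1633 to 5011 on these days. Members called ranged from 0 to 3 for the difference between days, where 0 came without day 4 EXP replicate 2, with 951 of 18277 tested genes called. They ranged from 2 to 4 between days 1 and 4 and from 0 to 3 between days 2 and 4 in EXP, and stayed at 0 in the other time contrasts. Mean log2 differences of ratios ranged from 0.91 to 1.30 for Lama4 to Lama2, 0.72 to 1.11 for Col18a1 to Col15a1, -0.70 to -0.42 for Lamb1 to Lamc1 and -0.09 to -0.04 for Col4a1 to Col4a2. With a pseudocount of 5 no ratio changed direction or call. Directions turned for Col4a2 on day 1 (-0.10 to 0.06), Lamc1 on day 1 (-0.18 to 0.32), Lamb1 on day 4 (-0.45 to 0.42) and Lamc1 on day 4 (-0.15 to 0.54). Of the lists, the protease counts of days 2 and 4 stayed within 1.5 times in all settings. The receptor count of day 4 was 1 with voom (3253 of 17554 tested genes) or day 4 alone, in place of 5. It was 2 without the count filter, with a replicate block or with the split in the model. Other basement membrane genes called on day 2 were 10 with voom (4567 of 17554) or day 2 alone (3514 of 15350), in place of 4. On day 4 they were 10 with DESeq2 (4800 of 17554), in place of 6. With 3 EXP libraries on days 2 and 4, a log2 fold change of a member had an SE of 0.21 to 0.56, which limits what a missed threshold shows.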
